A study of Mus musculus with 3 samples.

Results

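The subunits of AMPA and NMDA receptors, the glutamate-gated channels of fast excitatory transmission, were followed by their transcripts through 3 single-cell libraries of the neonatal medial prefrontal cortex (mPFC). The 10 genes were chosen by symbol. *Gria1*, *Gria2*, *Gria3* and *Gria4* encode the AMPA receptor subunits GluA1 to GluA4, and *Cnih2* encodes an auxiliary protein of AMPA receptors. *Grin1* encodes the obligatory NMDA receptor subunit GluN1, *Grin2a*, *Grin2b* and *Grin2d* encode GluN2 subunits, and *Grin3a* encodes GluN3A. Of these, 9 had a row among the 14933 genes of the table of filtered cells, and 6 (*Gria1*, *Gria2*, *Cnih2*, *Grin1*, *Grin2b* and *Grin3a*) were among the 7174 genes that the authors kept for neuronal cells. *Grin2d* had no row. Over all barcodes the wild-type and heterozygous libraries had 1 unique molecular identifier (UMI) each of this gene and the homozygous library 3, and it is not described further.

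The mPFC of C57Bl6 mice was taken at postnatal day (P)5, dissociated with papain, sorted for tdTomato and captured with the 10X Chromium 3′ v2 chemistry, with 1 library for each of 3 genotypes. All 3 groups carried *Rbp4-Cre* (Gensat line KL100), which recombines in layer 5 pyramidal neurons, and a Cre-dependent tdTomato reporter (Ai14). The groups were wild-type (Rbp4cre::tdTomato), Tbr1layer5 heterozygous (Tbr1f/+::Rbp4cre::tdTomato) and Tbr1layer5 homozygous (Tbr1f/f::Rbp4cre::tdTomato), and in the floxed allele exons 2 and 3 of *Tbr1*, a transcription factor of deep-layer neurons, lie between loxP sites. The labels do not say how many animals went into a library or whether they were pooled, and a difference between libraries cannot be told apart from a difference between genotypes. Unless another order is named, 3 values of a gene or class that follow each other stand for the libraries in genotype order, first wild-type, then heterozygous, last homozygous. The UMIs of each library were added up over typical neuronal cells, which the authors retained for differential expression (1778, 5357 and 3935 cells), over atypical neuronal cells, which they set aside for low excitatory markers (304, 107 and 462 cells), and over filtered cells outside their neuronal table (2873, 1398 and 1182 cells). Levels are counts per 1000000 UMIs of the summed cells (CPM). Every interval is an exact 95% interval that covers counting error only, because 1 library per genotype leaves no replicate error and no test. The limit given in the text for a count of 0 is the level of 3 counts.

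AMPA receptors assemble as tetramers, and the presence of GluA2 sets whether the channel passes calcium, since its transcript is edited at a glutamine codon of the pore that is then read as arginine (the Q/R site). Cornichon proteins such as CNIH2 accompany AMPA receptors through the secretory pathway and slow their closing. NMDA receptors pair GluN1 with GluN2 or GluN3 subunits, and in the forebrain GluN2B and GluN3A are prominent early after birth while GluN2A increases with age.

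The pore segment is shown because editing there sets GluA2 apart. In GENCODE vM21 on GRCm38 it lies across exons 11 and 12 of each gene, and 48 coding bases are printed 5′ to 3′ on the coding strand, with the codon of the Q/R site in capitals.
*Gria1*: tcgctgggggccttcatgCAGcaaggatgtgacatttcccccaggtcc
*Gria2*: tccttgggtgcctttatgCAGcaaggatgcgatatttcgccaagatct
*Gria3*: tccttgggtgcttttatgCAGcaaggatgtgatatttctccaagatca
*Gria4*: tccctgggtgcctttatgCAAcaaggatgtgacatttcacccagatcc
The codons lie at chr11:57243094-57243096 on the plus strand, chr3:80706911-80706913 on the minus strand, chrX:41610265-41610267 on the plus strand and chr9:4464137-4464139 on the minus strand, in the order of the genes. *Gria2* and *Gria3* shared 44 of the 48 bases, *Gria1* and *Gria4* shared 42, and *Gria1* shared 38 with either *Gria2* or *Gria3*. The genomic codon was a glutamine codon in all 4 genes. The libraries read the 3′ ends of transcripts, so a *Gria2* UMI counts a transcript without saying whether it was edited.

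The typical cells held 3670646, 10418228 and 6074494 UMIs, with medians of 1901, 1743 and 1375 UMIs per cell. *Tbr1* was at 27.5 CPM (101 UMIs), 30.7 CPM (320 UMIs) and 22.4 CPM (136 UMIs) in these cells. These 3′ counts do not read exons 2 and 3 and therefore do not check the deletion. All 8 excitatory neuron markers of a fixed list were detected in typical cells of each library. Their sum of 423 to 477 CPM exceeded the 269 to 332 CPM of barcodes that held 100 UMIs or more but under 500. These barcodes are called droplets here and are taken to hold mostly free RNA, which was not tested. All 9 markers of astrocytes were also detected, at 6062 to 6973 CPM in typical cells against 6464 to 7106 CPM in droplets, and the inhibitory neuron list gave 538 to 662 CPM against 658 to 791 CPM. Each pair of libraries shared 47 (wild-type and heterozygous), 37 (wild-type and homozygous) or 58 (heterozygous and homozygous) cell barcodes, where random draws from the list of possible barcodes would share 46.1, 37.5 and 51.9, and 140 barcodes were shared in all.

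*Cnih2* was by far the most counted of the 9 genes in typical neuronal cells, at 859 CPM (3154 UMIs) in wild-type cells against 1098 CPM (11443 UMIs) in heterozygous and 1097 CPM (6665 UMIs) in homozygous cells. Its mean of 1018 CPM was the 167th highest among all 14933 genes. The authors had used *Cnih2*, together with *Nrgn* and *Rorb*, to pick the neuronal clusters, so a high level in these cells is partly a choice and not a finding.

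Among the channel subunits, *Grin2b* and *Gria2* led. *Grin2b*, the GluN2 subunit of early synapses, was at 54.2 CPM (95% interval 46.9 to 62.3, 199 UMIs), 44.2 CPM (40.2 to 48.4, 460 UMIs) and 45.3 CPM (40.1 to 51.0, 275 UMIs). *Gria2* was at 41.1 CPM (34.8 to 48.2, 151 UMIs), 35.5 CPM (32.0 to 39.3, 370 UMIs) and 47.6 CPM (42.2 to 53.4, 289 UMIs). The ranges of both genes over the 3 libraries overlapped, so their order is not settled. UMI counts of transcript ends have no length term, and levels of different genes are compared here per captured 3′ end.

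The other 6 subunits were counted rarely. *Grin1*, without which no NMDA receptor forms, had 8.72, 11.9 and 12 CPM (32, 124 and 73 UMIs). *Grin3a* had 11.7, 9.21 and 9.71 CPM (43, 96 and 59 UMIs). *Gria1*, which encodes the subunit most associated with activity-dependent insertion at synapses, had 10.6, 11.3 and 6.91 CPM (39, 118 and 42 UMIs). The ranges of these 3 genes overlapped. *Gria3* followed with 5.86 to 6.27 CPM in the 3 libraries, and *Grin2a* (2.3 to 3.36 CPM) and *Gria4* (2.3 to 2.72 CPM), whose ranges overlapped, had 10 to 35 UMIs in any library. Their mean levels ranked between 6031 and 10355 among the 14933 genes.

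Of the channel subunits, *Grin2b* and *Grin3a* stood above the droplets beyond counting error in all 3 libraries, and no AMPA receptor subunit did. *Grin2b* was at 33.7, 32.6 and 34.0 CPM in droplets, and the log2 ratio of droplets to typical cells was −0.69 (−0.93 to −0.44), −0.44 (−0.66 to −0.22) and −0.41 (−0.63 to −0.19). *Grin3a* was at 4.75 to 6.22 CPM in droplets, with ratios of −1.05, −0.57 and −1.03 whose intervals all lay below 0. *Gria2* was at 35.0, 36.5 and 36.4 CPM in droplets. Its interval reached above 0 in the wild-type (−0.50 to 0.04) and heterozygous (−0.18 to 0.26) libraries and lay below 0 in the homozygous library (−0.60 to −0.17). *Gria3* and *Grin2a* were lower in droplets in each library. The interval lay below 0 for *Gria3* in the homozygous library alone (−1.55 to −0.24) and for *Grin2a* in the wild-type library alone (−2.58 to −0.05). For *Gria1*, *Gria4* and *Grin1* the intervals held 0 in all 3 libraries, so the counts do not separate their level in typical cells from that in droplets.

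The share of cells with a UMI was low for the channel subunits. With every cell thinned to 1000 UMIs, *Gria2* was found in 4.05, 3.43 and 4.55% of typical cells (7.76, 6.57 and 6.89% before thinning). Endothelial-like cells, which should lack the gene, gave 2.52, 1.87 and 1.27% (5.05, 2.80 and 3.18% before thinning) at median depths of 2853, 2433 and 1958 UMIs. *Grin2b* was found in 5.01, 4.39 and 4.40% of thinned typical cells (10.2, 8.12 and 6.71% before thinning). In thinned endothelial-like cells its share was 0.315, 0 and 0.637% (3.79, 3.74 and 1.91% before thinning). These shares stand for 1, 0 and 1 of 317, 107 and 157 cells after thinning, and for 12, 4 and 3 cells before it. The 0 allows a share of up to 2.80% at the thinned depth only. *Cnih2* was found in 58.8, 65.7 and 64.2% of thinned typical cells (81.4, 84.8 and 78.1% before thinning) and in 13.9, 28.0 and 19.1% of thinned endothelial-like cells (41.3, 47.7 and 35.0% before thinning). No typical or endothelial-like cell was too shallow to be thinned.

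**Figure D1:**
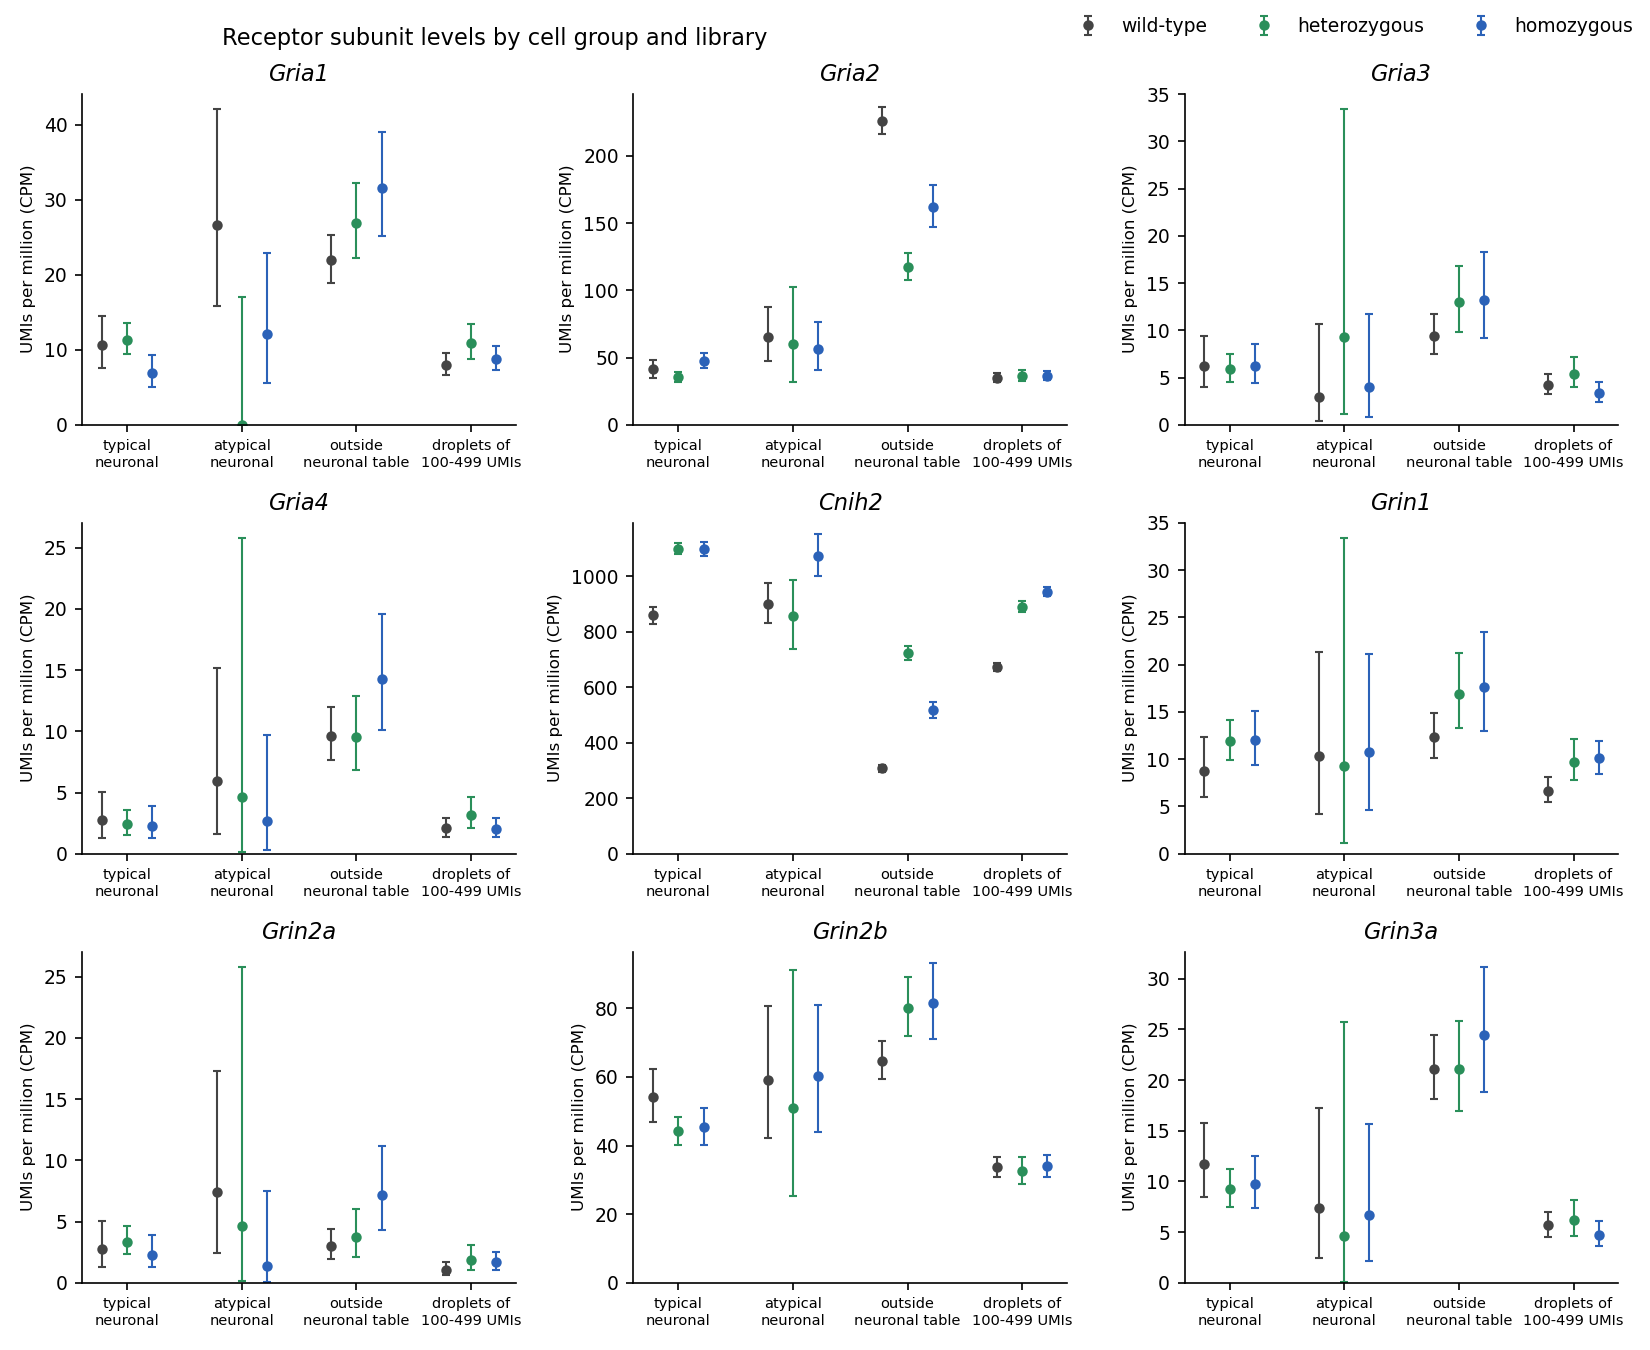
Level of 9 receptor genes in counts per 1000000 UMIs (CPM, y axis, a scale of its own in each panel) in typical neuronal cells, atypical neuronal cells, cells outside the neuronal table and droplets of at least 100 and fewer than 500 UMIs (x axis), with 1 point for each library and bars for the exact 95% Poisson interval. *Gria2* lies between 117 and 226 CPM outside the neuronal table and between 35.5 and 47.6 CPM in typical cells. *Cnih2* is lowest outside the neuronal table in each library, which its use as a neuronal marker sets in part, with droplets at 672 to 943 CPM.

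The comparison of genotypes asked whether these transcripts differed when *Tbr1* was deleted in layer 5. Genes at least 25% higher or 20% lower in one library than in another were counted among the 4261 genes that averaged 20 CPM or more over the 3 libraries in typical cells, and are called past the fold here. These included 3 of the 9 members with a row, *Gria2*, *Grin2b* and *Cnih2*. *Cnih2* alone was past it in the homozygous over wild-type comparison, 1 of 3 members higher where 17.2% of all genes were higher, and 0 of 3 lower where 8.5% were lower. It was also the 1 member of 3 that was higher in the heterozygous over wild-type comparison (17.1% of all genes), and 0 of 3 were lower (9.5% of all genes). Between both mutant libraries *Gria2* was the 1 member of 3 higher in the homozygous library, where 4.04% of all genes were, and 0 of 3 were lower, where 2.68% of all genes were. The median log2 ratio of the 3 members was 0.21, −0.21 and 0.04 in these comparisons and that of all 4261 genes 0.08, 0.06 and 0.01. Each library enters 2 of these comparisons, so the values are not independent of each other.

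With no minimum level, 9 members had a ratio. *Cnih2* and *Grin1* were then past the fold and higher in both mutant libraries over wild-type (22.6% of all genes for homozygous and 21.6% for heterozygous), *Gria1* was lower in the homozygous library (24.8% of all genes) and *Grin3a* in the heterozygous library (26.5%). In homozygous over heterozygous *Gria2* was higher (19% of all genes) and *Gria1* and *Grin2a* were lower (15%). At a fold of 1.5 with no minimum *Gria1* alone was lower in the homozygous library, both over wild-type (15.3% of all genes) and over heterozygous (7.66%). No other member was then lower, where 15.3% of all genes were for heterozygous over wild-type, and none was higher, where 11.7, 10.3 and 10.7% were for homozygous over wild-type, heterozygous over wild-type and homozygous over heterozygous. At a fold of 1.5 and the 20 CPM minimum no member was higher or lower in any comparison, where 2.96% of all genes were higher and 1.95% lower for homozygous over wild-type, 3.59 and 2.39% for heterozygous over wild-type and 0.681 and 0.469% for homozygous over heterozygous.

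The 4 AMPA receptor subunits together were at 60.8 CPM (223 UMIs) in the wild-type, 55.1 CPM (574 UMIs) in the heterozygous and 63.1 CPM (383 UMIs) in the homozygous library. The log2 ratio was 0.05 (−0.19 to 0.30) for homozygous over wild-type, −0.14 (−0.37 to 0.09) for heterozygous over wild-type and 0.19 (0.00 to 0.38) for homozygous over heterozygous. The first interval leaves room for a sum that is 0.19 lower or 0.30 higher on the log2 scale, and a difference within it was not detectable at this depth. As mean UMIs per cell, with no scaling for depth, the AMPA sum turned in both comparisons of the homozygous library, to −0.37 (−0.61 to −0.12) over wild-type and −0.14 (−0.33 to 0.05) over heterozygous. Every gene is shifted alike by this setting, by −0.42 and −0.33 in these comparisons.

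The NMDA receptor subunits together were at 77.4 CPM (284 UMIs) in the wild-type, 68.6 CPM (715 UMIs) in the heterozygous and 69.3 CPM (421 UMIs) in the homozygous library. Both mutant libraries were lower, with log2 ratios of −0.16 (−0.38 to 0.06) for homozygous and −0.17 (−0.37 to 0.03) for heterozygous over wild-type, within counting error. As mean UMIs per cell, with no scaling for depth, these were −0.58 (−0.80 to −0.36) and −0.26 (−0.46 to −0.06), both below 0. That setting shifts the ratio of every gene alike, here by −0.42 and −0.09, because the libraries differ in depth per cell. *Grin2b* made up most of the sum. Its log2 ratio was −0.26 (−0.53 to 0.01) for homozygous over wild-type and −0.30 (−0.54 to −0.05) for heterozygous over wild-type. *Grin2b* was at 32.6 to 34.0 CPM in the droplets of the 3 libraries, and the part of free RNA in its ratios was not tested. The ratios of *Grin1* went the other way, with 0.46 (−0.15 to 1.11) and 0.45 (−0.12 to 1.06), and both of its intervals held 0. *Grin1* was also higher in the droplets of the mutant libraries, at 9.75 CPM in heterozygous and 10.1 CPM in homozygous against 6.67 CPM in wild-type, and the part of free RNA in the ratio was not tested. For *Grin2a* and *Grin3a* the intervals held 0 in each comparison.

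*Gria1* and *Gria2* differed in opposite directions between the mutant libraries. From the heterozygous to the homozygous library *Gria2* was higher by a log2 ratio of 0.42 (0.19 to 0.65) and *Gria1* differed by −0.71 (−1.26 to −0.19). Against the wild-type library both intervals of each gene held 0. In the droplets *Gria2* was at 36.5 CPM in heterozygous and 36.4 CPM in homozygous and *Gria1* at 10.9 and 8.76 CPM. As mean UMIs per cell, with no scaling for depth, the *Gria2* ratio was 0.09 (−0.14 to 0.31). *Gria3* and *Gria4*, with at most 61 UMIs in a library, had intervals that held 0 throughout.

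The make-up of the AMPA receptor transcripts followed from these values. *Gria2* was 67.7% (61.1 to 73.8%) of the 4 genes' UMIs in wild-type typical cells, 64.5% (60.4 to 68.4%) in heterozygous and 75.5% (70.8 to 79.7%) in homozygous cells. The heterozygous and homozygous intervals did not overlap, and the wild-type interval overlapped both. *Gria1* was 17.5% (12.7 to 23.1%), 20.6% (17.3 to 24.1%) and 11% (8.02 to 14.5%). In the droplets *Gria2* was 71.0, 65.2 and 72.0%, also lowest in the heterozygous library. *Gria1* was 16.2, 19.5 and 17.3% in the droplets, with an interval of 14.6 to 20.3% in the homozygous library. The part of free RNA in the shares was not tested. *Grin2b* was 95.2% (91.4 to 97.7%), 92.9% (90.3 to 95%) and 95.2% (92.0 to 97.3%) of *Grin2a* and *Grin2b* UMIs, and these 3 intervals overlapped.

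*Cnih2* had a counting interval far from 0. The log2 ratio of CPM was 0.35 (0.29 to 0.41) for homozygous and 0.35 (0.30 to 0.41) for heterozygous over wild-type, and between both mutant libraries the interval was −0.05 to 0.04. Both mutant libraries also stood apart from wild-type in median mitochondrial share (10.4, 15.4 and 12.5% of UMIs per typical cell), median ribosomal share (23.8, 17.8 and 19.2%) and the summed blood markers, all 5 of which were detected (345, 44.6 and 85.8 CPM), and the part of these in any ratio over wild-type was not tested. *Cnih2* was above wild-type in both mutant libraries in several groups of cells outside the typical cells as well. It was at 672, 890 and 943 CPM in droplets, at 279, 386 and 419 CPM in astrocyte-like cells and at 692, 897 and 908 CPM in an unnamed cluster led by *Crybb1* and *Aif1*. In endothelial-like cells the heterozygous library was at 310 CPM and both others at 167 CPM. With the droplet profile subtracted both ratios over wild-type were 0.30, and the part of free RNA was not tested beyond this. Without scaling for depth, as mean UMIs per cell, the homozygous ratio was −0.067.

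**Figure D2:**
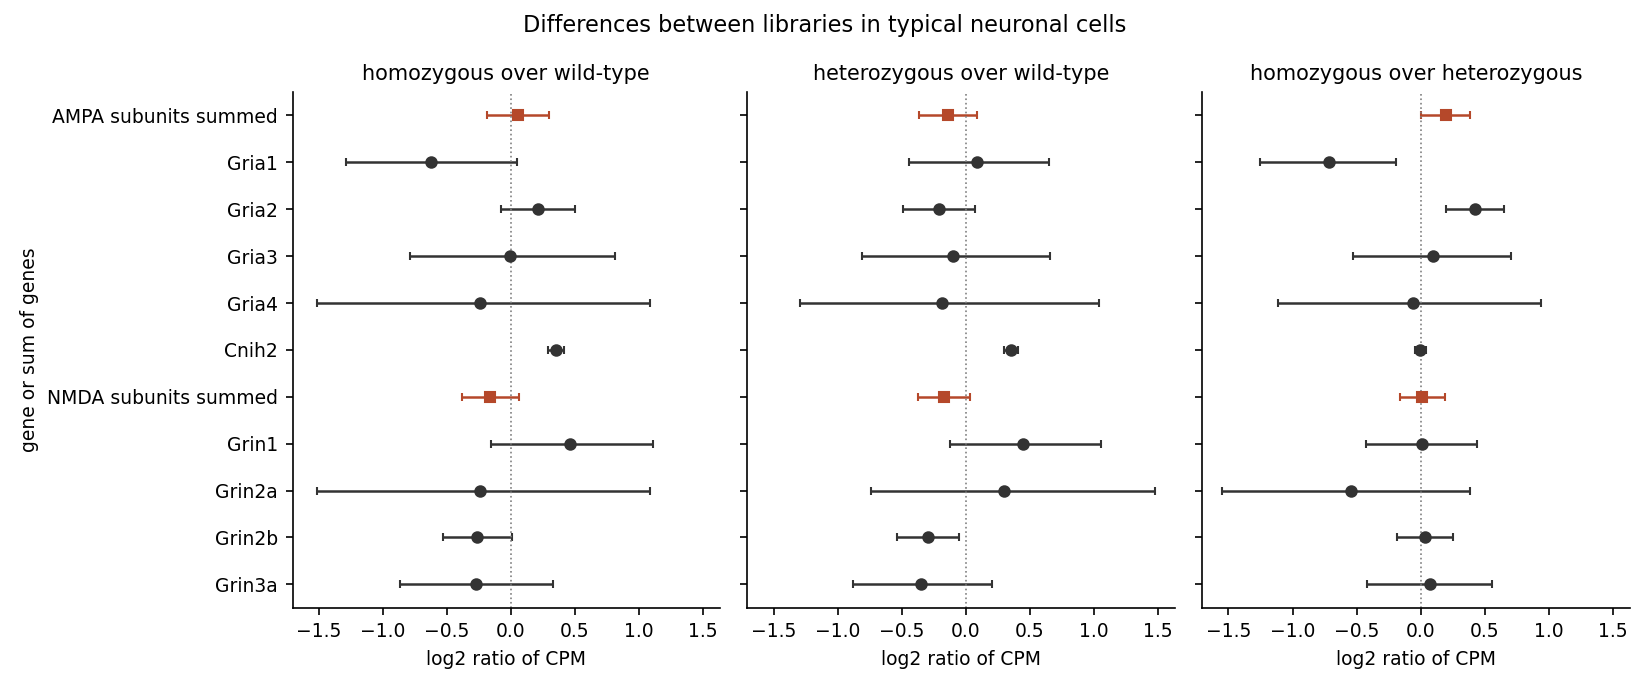
Log2 ratio of CPM between libraries (x axis) in typical neuronal cells for 9 receptor genes and for the AMPA and NMDA receptor subunits summed (y axis, sums as squares), with exact 95% intervals for counting error and a dotted line at 0, in 1 panel per comparison. *Cnih2* lies at 0.35 in both panels against wild-type with a narrow interval, and *Gria1* and *Gria2* lie on either side of 0 in the homozygous over heterozygous panel.

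Atypical neuronal cells held 675832, 216259 and 745153 UMIs of all genes. Few of these were of the channel subunits, with 68, 16 and 56 UMIs in the AMPA sum and 57, 15 and 59 in the NMDA sum. In the wild-type library *Gria2* was at 65.1 CPM (44 UMIs) and *Gria1* at 26.6 CPM (18 UMIs), above typical cells of the same library by log2 ratios of 0.66 (0.14 to 1.16) and 1.33 (0.43 to 2.17). In the heterozygous and homozygous libraries *Gria2* was at 60.1 and 56.4 CPM, with ratios of 0.76 (−0.16 to 1.55) and 0.24 (−0.26 to 0.72) that held 0. *Gria1* had no UMI in the 107 heterozygous atypical cells, which allows a level of up to 13.9 CPM at the limit of 3 counts, and was at 12.1 CPM (9 UMIs) in the homozygous library, with a ratio over typical cells whose interval held 0. *Cnih2* was at 901, 855 and 1074 CPM and *Grin2b* at 59.2, 50.9 and 60.4 CPM. All 8 markers of striatal projection neurons were detected in atypical cells of each library, at 400 to 566 CPM against 38.4 to 61.9 CPM in typical cells, and their part in these values was not tested.

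Outside the neuronal table *Gria2* was several times higher than in typical cells. It was at 226 CPM (1946 UMIs) in the wild-type, 117 CPM (507 UMIs) in the heterozygous and 162 CPM (431 UMIs) in the homozygous library, with log2 ratios over typical cells of 2.46 (2.22 to 2.71), 1.73 (1.53 to 1.92) and 1.77 (1.55 to 1.99). Every outside value lay above every typical value. *Gria2* was 1 of 3 members with a mean of at least 20 CPM over both groups that were at least 2-fold higher outside in all 3 libraries, where 12.9% of 5183 genes were. No member was 2-fold lower in all 3 libraries, where 0.0193% of the genes were. The median log2 ratio was 0.85 for the 3 members and 0.27 for all genes.

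Of the rarer subunits *Gria1*, *Gria4* and *Grin3a* were higher outside in all 3 libraries beyond counting error. *Gria4* was at 9.63, 9.49 and 14.3 CPM outside, with log2 ratios of 1.82 (0.87 to 2.93), 1.98 (1.23 to 2.76) and 2.63 (1.71 to 3.63). For *Gria1* the ratios were 1.05 to 2.19 and for *Grin3a* 0.85 to 1.33, all with intervals above 0. *Gria3* was at 9.40, 13 and 13.2 CPM outside, with ratios of 0.59 (−0.10 to 1.32), 1.15 (0.60 to 1.69) and 1.07 (0.37 to 1.77). For *Grin1* the interval lay above 0 in the heterozygous library alone (0.07 to 0.93) and for *Grin2a* in the homozygous library alone (0.56 to 2.74). *Grin2b* was at 64.8, 80.1 and 81.5 CPM outside, with ratios of 0.26 (0.02 to 0.50), 0.86 (0.65 to 1.06) and 0.85 (0.59 to 1.11). *Cnih2* was lower outside, at 307, 722 and 517 CPM, which its use as a marker for the neuronal clusters sets in part. The outside cells were not the same mixture in each library. Excitatory-like cells were 1.71, 19.5 and 1.95% of them, and immature inhibitory-like cells were 19.6, 5.87 and 7.45%.

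The outside cells were therefore divided by clustering in which the members and the other receptor genes had no part. Clusters were named from fixed marker lists. The lists do not cover immaturity or split the oligodendrocyte lineage, so the words immature and precursor in class names were not tested. In excitatory-like cells the excitatory markers summed to 568, 491 and 414 CPM and the inhibitory markers to 435, 264 and 875 CPM. Astrocyte markers summed to 6048, 5913 and 6826 CPM in the same cells, beside 6062 to 6973 CPM in typical cells, and their part was not tested. Each class of cells is described by its mean over the libraries with at least 30000 UMIs in it, with the range. *Gria2* was highest in an unnamed cluster led by *Meg3* and *Snhg11*, at 882 CPM (560 to 1097), with 209, 39 and 96 UMIs. The excitatory markers summed to 971 to 1051 CPM in this cluster and the inhibitory markers to 402 to 1669 CPM. *Gria2* was at 455 CPM (403 to 507, 2 libraries) in oligodendrocyte precursor-like cells, 397 CPM (326 to 509) in astrocyte-like cells, 322 CPM (237 to 405) in oligodendrocyte-like cells, 312 CPM (245 to 348) in inhibitory-like cells with *Sst* and *Npy*, and 266 CPM (230 to 298) in immature inhibitory-like cells. Typical neuronal cells came 14th of 21 classes, at 41.4 CPM (35.5 to 47.6), and the excitatory-like outside cells came 12th, at 47.8 CPM (30.7 to 71.0). From the oligodendrocyte precursor-like to the immature inhibitory-like cells each class overlapped its neighbour in range, and all of these lay above the typical cells.

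*Gria1* had another distribution. It was highest in inhibitory-like cells with *Sst* and *Npy*, at 249 CPM (192 to 342), followed by the *Meg3* and *Snhg11* cluster at 165 CPM (114 to 201) and Cajal-Retzius-like cells at 136 CPM (126 to 146, 2 libraries), and neighbours in this order overlapped. Astrocyte-like cells had 10, 5 and 4 *Gria1* UMIs in the 3 libraries and oligodendrocyte-like cells had 0. *Gria4* was highest in oligodendrocyte-like cells at 88.4 CPM (73.7 to 116), then Cajal-Retzius-like cells at 63.0 CPM (37.5 to 88.4, 2 libraries, 17 UMIs) and inhibitory-like cells with *Sst* and *Npy* at 60.3 CPM (59.4 to 60.7), and neighbours in this order overlapped. *Gria3* was highest in the *Meg3* and *Snhg11* cluster at 89.8 CPM (71.8 to 103) and in oligodendrocyte precursor-like cells at 55.5 CPM (44.8 to 66.2).

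Of the NMDA receptor genes, *Grin1*, *Grin2a* and *Grin2b* were highest in inhibitory-like cells or the *Meg3* and *Snhg11* cluster, and *Grin3a* was counted in glia-like classes as well. *Grin2b* was at 617 CPM (459 to 777) in the *Meg3* and *Snhg11* cluster, 400 CPM (305 to 480) in inhibitory-like cells with *Sst* and *Npy*, 244 CPM (194 to 320) in striatal-like cells and 99.1 CPM (89.1 to 114) in immature inhibitory-like cells. Of neighbours in this order only striatal-like and immature inhibitory-like cells did not overlap. *Grin1* was highest in inhibitory-like cells with *Sst* and *Npy* at 92.5 CPM (79.9 to 116) and in the *Meg3* and *Snhg11* cluster at 79.6 CPM (57.4 to 91.4), which overlapped. *Grin2a* was highest in the same 2 classes, at 48.8 CPM (14.4 to 80.0) in the *Meg3* and *Snhg11* cluster and 23.7 CPM (6.39 to 38.6) in the inhibitory-like cells, which overlapped. *Grin3a* was at 152 CPM (119 to 193) in inhibitory-like cells with *Sst* and *Npy*, 63.5 CPM (38.7 to 88.2, 2 libraries) in oligodendrocyte precursor-like cells, 41.5 CPM (14.4 to 75.8) in the *Meg3* and *Snhg11* cluster and 33.9 CPM (22.6 to 41.9) in astrocyte-like cells, against 9.21 to 11.7 CPM in typical cells. With clusters made at a coarser resolution *Gria2* over the 3 libraries together was at 514 CPM instead of 311 CPM in the inhibitory-like cells with *Sst* and *Npy*, and striatal-like cells had 40.3 CPM instead of 233 CPM of *Grin2b*, so these class levels hold for the clusters as drawn.

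*Cnih2* was ordered otherwise, which its use as a marker for the neuronal clusters sets in part. It was at 1071 CPM in striatal-like, 1030 CPM in excitatory-like and 1018 CPM in typical neuronal cells, whose ranges overlapped, 663 CPM in inhibitory-like cells with *Sst* and *Npy* and 528 CPM in the *Meg3* and *Snhg11* cluster, the class in which *Gria2*, *Gria3*, *Grin2a* and *Grin2b* were highest.

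**Figure D3:**
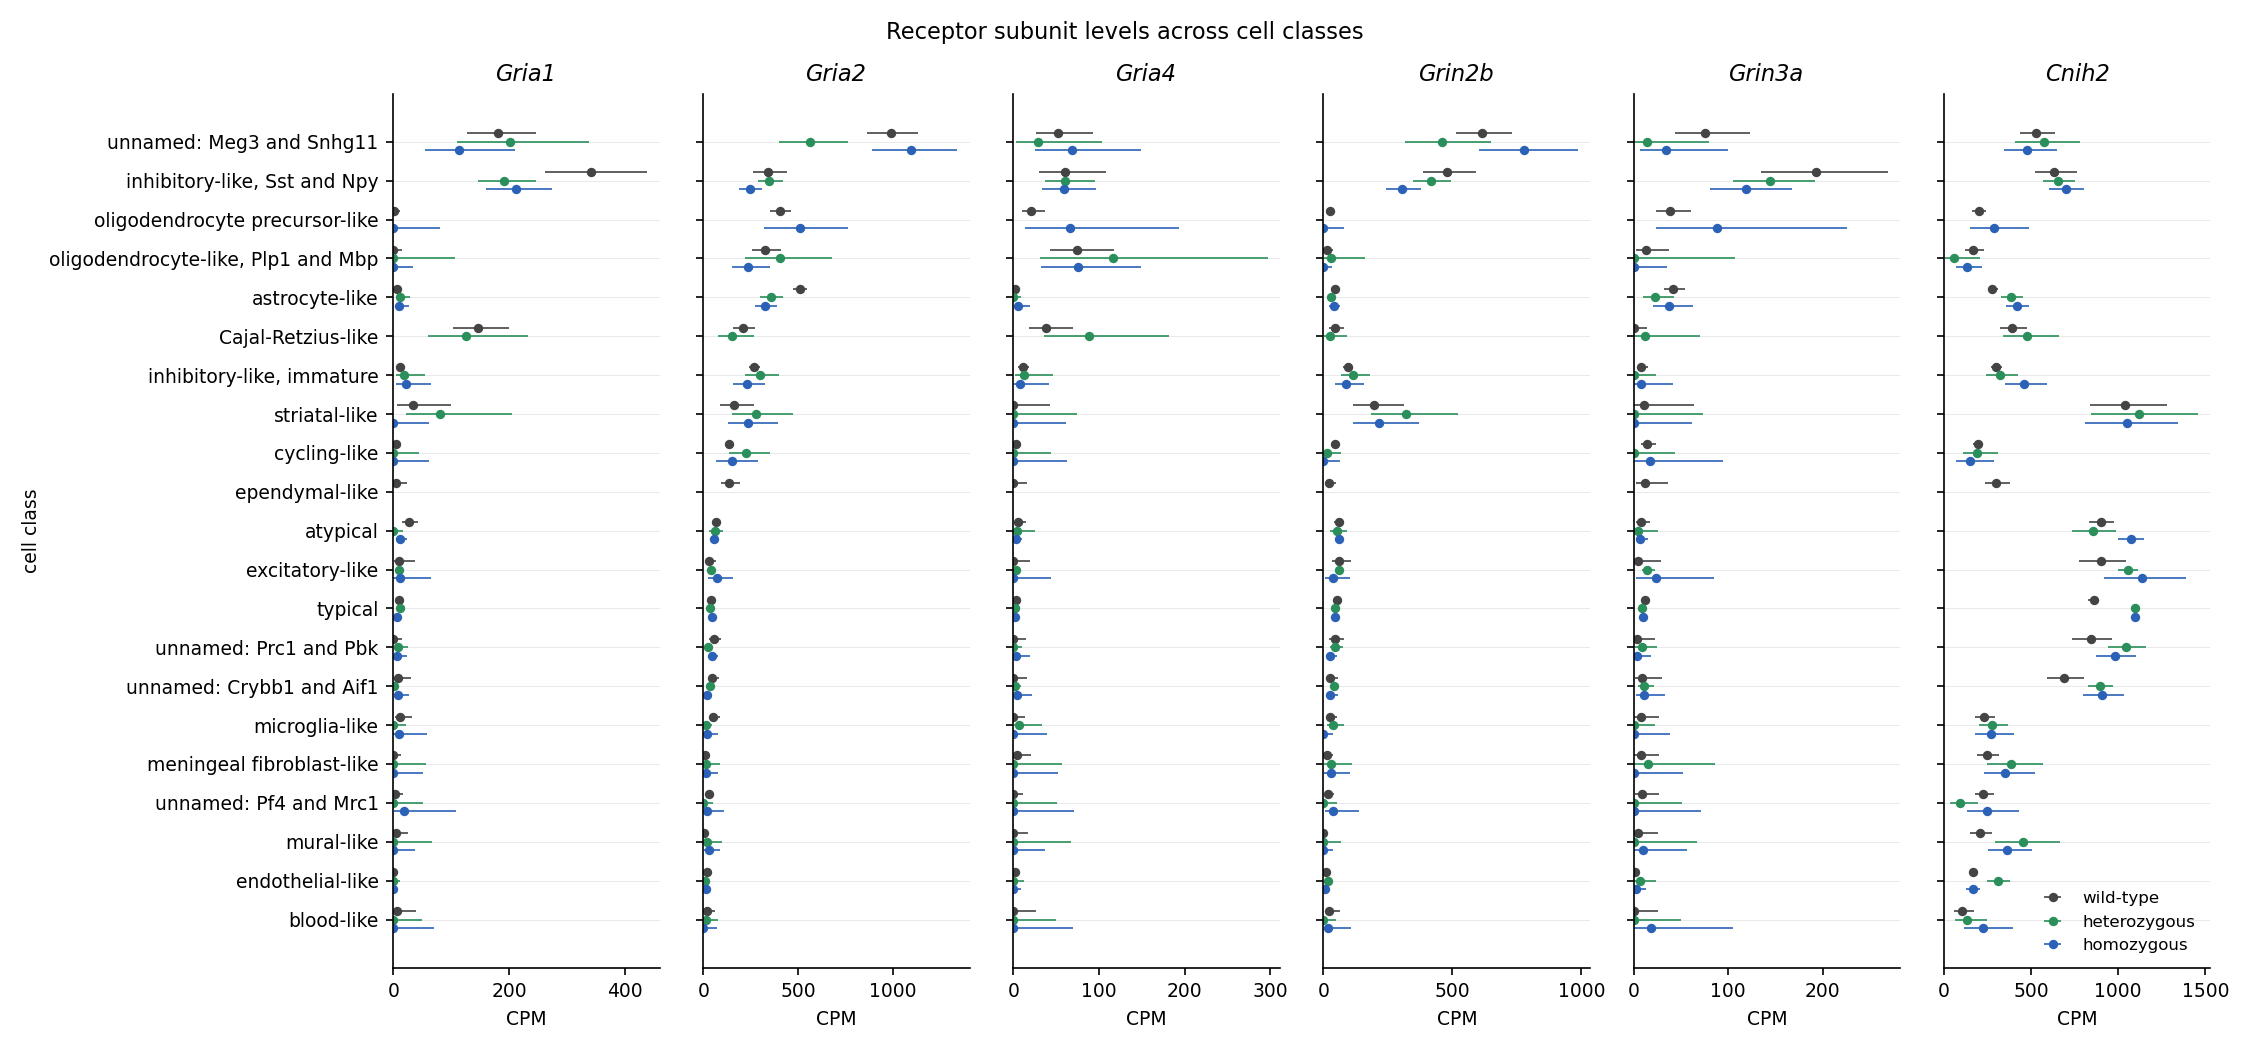
Level in CPM (x axis, a scale of its own in each panel) of *Gria1*, *Gria2*, *Gria4*, *Grin2b*, *Grin3a* and *Cnih2* in 21 classes of cells (y axis), with 1 point for each library that had at least 30000 UMIs in the class and bars for the exact 95% Poisson interval. The channel subunits lie highest in the *Meg3* and *Snhg11* cluster, in inhibitory-like cells and, for *Gria2*, *Gria4* and *Grin3a*, also in glia-like classes. *Cnih2* lies highest in striatal-like, excitatory-like and typical neuronal cells, which its use as a marker for the neuronal clusters sets in part.

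The classes also differed in the make-up of AMPA receptor transcripts, taken over the 3 libraries together. *Gria2* was 96.4% (95 to 97.4%) of 993 UMIs in astrocyte-like cells and 90.7% of 442 UMIs in immature inhibitory-like cells. In inhibitory-like cells with *Sst* and *Npy* it was 47.9% (43.4 to 52.4%) of 495 UMIs, and *Gria1* was 36.2% (31.9 to 40.6%). Cajal-Retzius-like cells were alike, with 50.7% *Gria2* and 37.0% *Gria1* of 138 UMIs. Typical neuronal cells lay between these classes, with 68.6% (65.9 to 71.3%) *Gria2* and 16.9% *Gria1* of 1180 UMIs. In oligodendrocyte-like cells *Gria4* was 18.7% and *Gria1* 0 of 155 UMIs, which allows a *Gria1* level of up to 8.09 CPM. In inhibitory-like cells with *Sst* and *Npy* the *Gria2* share was 44.6, 52.2 and 44.9%, below that of typical cells of the same library. Among the 2 GluN2 genes with a row, *Grin2b* was 94.1% (92.4 to 95.4%) in typical cells, 94.9% (91.9 to 97.1%) in inhibitory-like cells with *Sst* and *Npy* and 92.4% (88.3 to 95.3%) in the *Meg3* and *Snhg11* cluster.

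**Figure D4:**
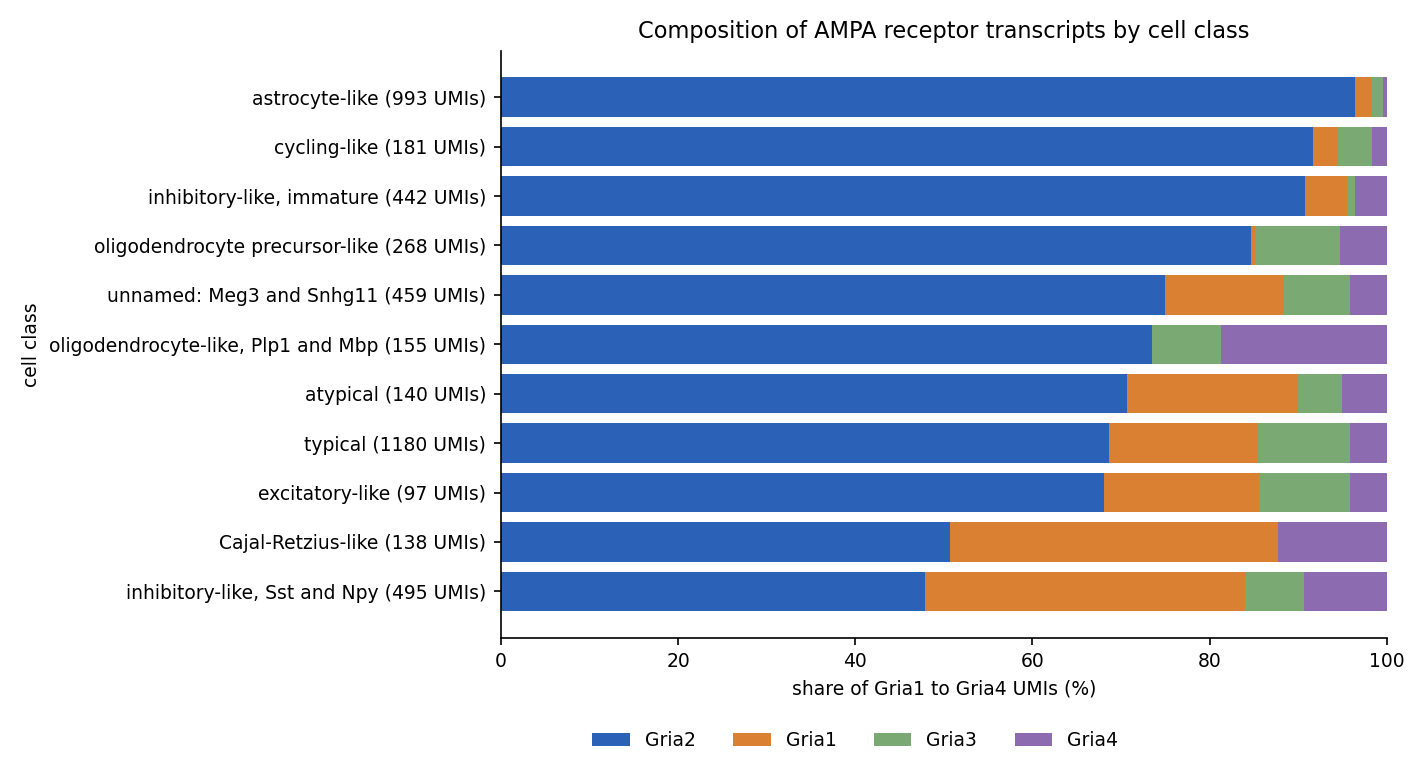
Share of *Gria1*, *Gria2*, *Gria3* and *Gria4* in their summed UMIs over the 3 libraries together (x axis, percent) in the classes of cells with the number of UMIs given (y axis). *Gria2* falls from 96.4% in astrocyte-like cells to 47.9% in inhibitory-like cells with *Sst* and *Npy*, where *Gria1* is 36.2%.

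The libraries were also compared within atypical neuronal cells, excitatory-like cells, astrocyte-like cells and both classes of inhibitory-like cells, and in excitatory-like cells every interval held 0. For *Cnih2* the log2 ratio of homozygous over wild-type was 0.25 (0.10 to 0.41) in atypical, 0.61 (lower bound 0.197) in immature inhibitory-like, 0.59 (0.31 to 0.86) in astrocyte-like and 0.14 (−0.20 to 0.49) in *Sst* and *Npy* inhibitory-like cells. That of heterozygous over wild-type was −0.08 (−0.32 to 0.16), 0.10 (−0.35 to 0.53), 0.47 (0.19 to 0.74) and 0.05 (−0.29 to 0.39) in these 4 classes. In atypical cells the homozygous library was also above the heterozygous one, by 0.33 (0.10 to 0.57).

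*Gria2* in astrocyte-like cells was at 509 CPM (472 to 549, 693 UMIs) in the wild-type library, 356 CPM (300 to 420, 142 UMIs) in the heterozygous and 326 CPM (270 to 389, 122 UMIs) in the homozygous library. The log2 ratio was −0.65 (−0.94 to −0.37) for homozygous and −0.52 (−0.79 to −0.25) for heterozygous over wild-type, and the share of thinned astrocyte-like cells with a *Gria2* UMI was 37.0, 30.8 and 24.6% (70.9, 56.2 and 47.3% before thinning). The same cluster, led by *Slc1a3*, held 86.9 to 91.0% of the class in each library. The astrocyte markers summed to 18630, 17201 and 17852 CPM and the excitatory markers to 145, 183 and 251 CPM in these cells. The median mitochondrial share of these cells was 4.42, 8.09 and 6.36% and the blood markers summed to 447, 22.6 and 61.4 CPM, which also set wild-type apart, and the part of these, of free RNA and of the cells sorted was not tested.

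In inhibitory-like cells with *Sst* and *Npy* (42, 68 and 59 cells) *Gria1* was at 342 CPM (62 UMIs) in the wild-type, 192 CPM (60 UMIs) in the heterozygous and 212 CPM (57 UMIs) in the homozygous library, with log2 ratios over wild-type of −0.84 (−1.37 to −0.30) and −0.69 (−1.24 to −0.15) for heterozygous and homozygous. *Gria3*, with 4, 21 and 8 UMIs, was higher in the heterozygous library by 1.60 (0.04 to 3.61) over wild-type. *Gria2* differed by 0.03 in heterozygous and by −0.48 in homozygous over wild-type, and both intervals held 0. For homozygous over heterozygous the *Gria2* ratio was −0.51 (−0.97 to −0.05), opposite in direction to that in typical cells. The AMPA receptor subunits together had ratios of −0.49 (−0.84 to −0.15) for homozygous and −0.20 (−0.52 to 0.12) for heterozygous over wild-type. The NMDA receptor subunits together were at 828, 645 and 531 CPM. Their log2 ratio was −0.64 (−0.98 to −0.30) for homozygous and −0.36 (−0.67 to −0.04) for heterozygous over wild-type. *Grin2b* was at −0.66 (−1.11 to −0.20) and −0.21 (−0.61 to 0.20) in these comparisons. The markers of inhibitory neurons summed to 40886, 19649 and 26539 CPM in the same cells, so the wild-type library was highest in these as well, and whether the cells are of the same kind in each library was not tested.

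Other genes of glutamate receptors were counted from fixed lists in typical cells, with the same minimum of 20 CPM and the same fold. Of the AMPA receptor auxiliary and assembly proteins, 6 of 20 could be counted. *Cnih3* (27.2, 37.1 and 34.4 CPM), a relative of *Cnih2*, and *Syndig1* (13.9, 23.8 and 22.4 CPM), which encodes a synaptic partner of AMPA receptors, were higher in both mutant libraries, although the homozygous over wild-type interval of *Cnih3* held 0 (−0.01 to 0.70). *Cacng4* (41.7, 32.1 and 32.6 CPM), a transmembrane AMPA receptor regulatory protein, was lower in both, and *Cnih1* (31.1, 39.2 and 34.9 CPM) was higher in the heterozygous library. Under the minimum, *Cacng7* (15, 18.8 and 19.1 CPM), *Sacm1l* (6.81, 11 and 13 CPM), *Porcn* (3.27, 4.51 and 5.76 CPM), *Shisa6* (1.63, 3.26 and 2.3 CPM) and *Cacng5* (1, 9 and 3 UMIs) differed by as much in both mutant libraries, and of these the intervals of *Sacm1l* alone lay above 0 in both comparisons. Of the 6, 2 were higher and 1 lower for homozygous over wild-type, where 17.2% of all genes were higher and 8.5% lower, and 3 were higher and 1 lower for heterozygous over wild-type, where 17.1% were higher and 9.5% lower. The list had median log2 ratios of 0.19 and 0.30 beside 0.08 and 0.06 for all genes.

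Of 15 trafficking and anchoring proteins 7 could be counted, and 2 were higher and 0 lower in either mutant library, beside the same shares of all genes, 17.2% higher and 8.5% lower for homozygous and 17.1 and 9.5% for heterozygous, with medians of 0.14 and 0.14. *Lin7b* (88.0, 115 and 120 CPM), a scaffold protein, and *Nsf* (28.3, 41.5 and 38.7 CPM), the fusion ATPase that binds GluA2, were the 2, while *Dlg4* (122, 134 and 144 CPM), which encodes PSD-95, and *Gipc1* (82.0, 90.3 and 90.5 CPM) were not past the fold. *Kif17*, far under the minimum, had 2, 31 and 12 UMIs. *Nsf* differed by 0.45 (0.11 to 0.80) and *Lin7b* by 0.44 (0.25 to 0.64) on the log2 scale for homozygous over wild-type.

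The other receptor families gave fewer counts. Of 7 genes of kainate receptors and their auxiliary proteins 2 could be counted, *Grik5* (39.5, 34.1 and 33.4 CPM) and *Neto2* (34.3, 27.4 and 28.6 CPM), and 1 of them, *Neto2*, was lower in the heterozygous library, where 9.5% of all genes were. Their medians were −0.25 and −0.27 for homozygous and heterozygous over wild-type. *Neto1* was at 9.54, 12.1 and 10.7 CPM and *Grik2* had 8, 17 and 10 UMIs. Of 8 metabotropic receptors 7 had a row and 1 could be counted, *Grm5* (43.3, 33.0 and 42.0 CPM), which was lower in the heterozygous library (log2 ratio −0.39, −0.67 to −0.11), again beside 9.5% of all genes. *Grm3* was at 19.3, 18.5 and 19.3 CPM and *Grm7* at 4.90, 3.46 and 3.79 CPM. None of 6 genes of delta receptors and their partners reached the minimum, the most counted being *Cbln2* (10.1, 16.6 and 12 CPM), *Grid1* (3.54, 5.28 and 6.26 CPM) and *Cbln1* (1.63, 2.59 and 5.93 CPM). Of 3 genes of the RNA editing enzyme family *Adarb1*, which encodes the enzyme of the Q/R site, could be counted, at 21.2, 21.7 and 23 CPM, and was not past the fold. *Adar* was at 10.4, 6.05 and 7.08 CPM and *Adarb2* at 1.36, 0.960 and 1.32 CPM.

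Across 44 sums of at least 100000 UMIs, which came from 23 groups of cells in the 3 libraries, the pattern of each of the 4 most counted members was set against 5839 genes on the log2(CPM + 10) scale. The sums share libraries, depth and free RNA, and the correlations are descriptions only. *Cnih2* was most like *Psd*, *Fxyd7* and *Sepw1*, with Pearson's r of 0.95, 0.94 and 0.93. *Grin2b* was most like the inhibitory neuron genes *Slc32a1* (0.89) and *Gad1* (0.87) and *Mapk10* (0.87). *Gria2* was most like *Syt11* (0.90), *Ncam1* (0.88) and *Bicd1* (0.86), and *Grin1* like *Tmem130* (0.91), *Clstn3* (0.89) and *Tmem59l* (0.88). Among the members the closest pairs were *Gria1* and *Grin1* (0.88), *Gria1* and *Grin2b* (0.83) and *Grin1* and *Grin2b* (0.82), whereas *Gria2* and *Cnih2* were at −0.01.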

How the data were processed

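Per the labels and the study's methods, the authors counted UMIs on mm10 (Cell Ranger 2.0.1). The deposited matrices hold the counts of every barcode. The table of filtered cells was deposited as raw counts of cells that the authors kept below a 30% mitochondrial share and between 500 and 10000 UMIs and 500 and 3000 genes. The lowest depth in it was higher and differed by library. It was 1533, 1196 and 1040 UMIs in typical cells and 1533, 1188 and 1039 UMIs in outside cells of the wild-type, heterozygous and homozygous libraries. Mitochondrial and ribosomal content was deposited as a fraction of UMIs per cell. The authors made the table of neuronal cells with Seurat 2.3.4 on a natural log scale, of UMIs per 10000 with 1 added, and it gave only the list of neuronal genes here. The authors' scaled table was not used.

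Raw UMIs were summed per library and group of cells (Python 3.11.15, numpy 2.4.6, scipy 1.17.1). Sums carry exact Poisson, shares exact binomial (Clopper-Pearson) and ratios exact conditional binomial 95% intervals, for counting error only. A count of 0 allows up to 3 counts. Cells were not treated as replicates, so the MAST test of the study was not repeated. Outside cells were clustered (leidenalg 0.10.2, 2000 variable genes, 30 components, 15 neighbors, resolution 1, 25 clusters) without members, listed receptor, mitochondrial, ribosomal and sex-linked genes. No doublet caller was run. Barcodes that held 100 UMIs or more but under 500 gave the droplet profile, subtracted at the share that the mural cell markers allow (23.4, 12.5 and 17.1% of UMIs in wild-type, heterozygous and homozygous). Scripts were tested on simulated data. Alternatives used TMM factors (edgeR 4.0.16), size factors (DESeq2 1.42.0), the neuronal genes as denominator, mean UMIs per cell, thinning to 1000 UMIs, atypical cells included, shared barcodes left out and the deepest 5% of cells left out.

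The members and lists were chosen with earlier results of these data known. Named genes are the members and, of each list, the 3 with the highest mean CPM and those that averaged 20 CPM or more and were at least 25% higher or 20% lower the same way in both mutant libraries (those under 20 CPM are given as values). The listed subunits *Grin2c* and *Grin3b* have no row in the table of filtered cells.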

Additional observations from a re-analysis of the deposited data

Results flagged for a closer look

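In the matrices of all barcodes, of which the comparisons use only the droplets, UMIs of 2 NMDA receptor subunits without a row in the table of filtered cells were found. For *Grin2c* the wild-type matrix held 21 UMIs, the heterozygous one 16 and the homozygous one 8, of which 2, 5 and 3 lay in filtered cells. For *Grin3b* the wild-type matrix held 4 UMIs and both others 0. Both stand out because UMIs were counted outside the main table and above the 3 that a count of 0 allows, and the counts are too low to compare libraries.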

How the results depend on the processing

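Of the log2 ratios of the AMPA and NMDA sums and of *Cnih2* and the *Gria2* and *Grin2b* shares, none left its counting interval under the neuronal-gene denominator, DESeq2 or TMM factors, thinning, droplet subtraction, or the inclusion of atypical cells and removal of shared barcodes or the deepest cells. Mean UMIs per cell, with no scaling for depth, shifted every ratio by −0.42 for homozygous over wild-type, −0.09 for heterozygous over wild-type and −0.33 for homozygous over heterozygous. In homozygous over wild-type it gave −0.58 for the NMDA sum, and −0.37 for the AMPA sum and −0.067 for *Cnih2*, both of which turned their direction, and 0.27 for *Cnih2* in heterozygous over wild-type. In homozygous over heterozygous it gave −0.14 for the AMPA sum and −0.32 for the NMDA sum, which also turned, and −0.33 for *Cnih2*. The *Gria1* ratio of homozygous over heterozygous ranged from −1.05 to −0.57 and that of *Gria2* from 0.09 to 0.50 over the alternatives. No paired analysis was possible because each genotype had 1 library. Depth limits *Gria3*, *Gria4* and *Grin2a*, with 10 to 61 UMIs in a library of typical cells.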
